A study of Homo sapiens with 4 samples.

Results

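The genes described here are 9 that carry peptides to the cell surface on MHC class I molecules: the class I heavy chains HLA-B, HLA-C, HLA-E and HLA-F, the light chain B2M, the peptide transporter genes TAP1 and TAP2, the loading factor TAPBP and the immunoproteasome subunit PSMB9. They were taken by gene name from the authors' deposited table of 34675 genes, and all 9 were found there. RNA had been sequenced from MDA-MB-231, an established human line of triple-negative breast carcinoma from a pleural effusion, grown on plastic in medium with 10% FBS. One stable line carried the empty plasmid (pcDNA-Vector) and the other the same plasmid with FLAG-tagged LKB1 (pcDNA-FLAG-LKB1 wildtype), with 2 libraries of each. LKB1, encoded by STK11, is a serine/threonine kinase that activates AMPK and related kinases. The series addressed the effect of expressing it in these cells.

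MHC class I molecules display short peptides from proteins made inside the cell to CD8+ T cells, and natural killer cells sense their loss. Proteasomes, including the interferon-inducible immunoproteasome, cut the peptides, the TAP1 and TAP2 proteins pump them together into the endoplasmic reticulum, and tapasin, the product of TAPBP, holds the empty heavy chain with its light chain, beta-2-microglobulin, beside the pump until a peptide is bound. Transcription of most of these genes is known to respond to interferons, to NF-kappaB and to the class I transactivator NLRC5, and low class I expression is a known route by which carcinomas escape T cells.

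The deposited table holds 1 comparison and no value per library, so no spread between libraries can be shown for any gene. Which line is the numerator of its folds is not in the header. A fold above 1 was taken to mean higher in the LKB1 line, since STK11 itself then had 1321 reads with the empty plasmid and 2112 with LKB1 (1.54-fold), which is therefore no independent evidence. Reads per gene, worked back from the folds, are sums over both libraries of a line, and came to 13603896 in all for the vector line and 14569245 for the LKB1 line. The labels do not say whether the libraries of a line came from separate cultures, nor whether a stable line was 1 clone or a pool. The spread behind the p-values is therefore that of these libraries alone and may be technical. One LKB1 library carries another run tag than the other 3, and the LKB1 titles read fmRNA where the vector titles read mRNA, a term that the labels do not explain. When the groups were checked for a mix-up, 1 of the 2 held reads that the cell line it is labelled with should not have, and the part of this in the results was not tested.

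Markers of the named line were present in both lines (EGFR, 6075 and 5726 reads, and KRT8, 6118 and 7334, in the vector and LKB1 lines), and the hormone receptors ESR1 and PGR had at most 12 reads in either. ERBB2, CDH1 and EPCAM had also been listed as low in this line but were not near 0. They had 1104 and 1364, 431 and 278, and 152 and 209 reads. Of 8 endothelial markers in the table, 7 were lower in the LKB1 line, ESAM from 1197 to 129 reads and ENG from 172 to 22, and the list summed to 2296 and 626 reads. EGFL7 was the exception, at 225 and 336 reads. Leukocyte markers summed to 2470 and 1913 reads, with 1 of 9 higher (CD14) and 1 lower (LCP1), PTPRC at 10 and 2 reads and MS4A1 at 0. Most of that sum was CD68, with 1587 and 1400 reads, and CSF1R had 107 and 154. Neither CD68 nor CSF1R passed. Fibroblast markers summed to 454 and 419 reads, with 2 of 7 lower (COL1A1 and COL3A1) DCN and THY1 at 0 and COL1A2, which did not pass, at 97 and 160 reads (log2 fold 0.66). The part of these markers in the results below was not tested, and in bulk RNA fewer cells of a type and less RNA per cell cannot be told apart.

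The sequence in front of the genes is shown because the members that rose and the 1 with a fold below 1 can be compared letter by letter there. RefSeq start sites on GRCh38.p14 matched 8 of the 9 genes (HLA-E had no entry in the table used). Each run is the 250 bases before the start, read in the direction of the gene. Capitals mark matches on either strand to 5 motifs, searched in windows from 250 bases before to 50 after the start. GAAANNGAA is a form of the core of interferon response elements, and GGGATTCCC and GGGANTTTC are forms of the kappaB site. TGACGCG is a form of the X2 box, and CCAAT was the last motif. The HLA-B run is chr6:31357180-31357429, the HLA-C run chr6:31272093-31272342, the TAP1 run chr6:32853705-32853954 and the TAP2 run chr6:32838740-32838989, all on the minus strand, and the B2M run is chr15:44711267-44711516 on the plus strand. Another listed start of TAP1, with its run at chr6:32852762-32853011, had no match to the 5 motifs and is not shown.
HLA-B: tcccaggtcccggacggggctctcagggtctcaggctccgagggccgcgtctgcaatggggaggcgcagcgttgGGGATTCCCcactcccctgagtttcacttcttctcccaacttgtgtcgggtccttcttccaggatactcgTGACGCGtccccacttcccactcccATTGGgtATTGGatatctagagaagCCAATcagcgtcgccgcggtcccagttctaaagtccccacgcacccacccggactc
HLA-C: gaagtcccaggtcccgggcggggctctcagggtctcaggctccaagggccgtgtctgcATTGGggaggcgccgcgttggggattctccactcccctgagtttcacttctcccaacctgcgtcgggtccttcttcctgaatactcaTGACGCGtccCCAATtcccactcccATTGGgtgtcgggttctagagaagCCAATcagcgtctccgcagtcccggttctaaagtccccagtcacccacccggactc
B2M: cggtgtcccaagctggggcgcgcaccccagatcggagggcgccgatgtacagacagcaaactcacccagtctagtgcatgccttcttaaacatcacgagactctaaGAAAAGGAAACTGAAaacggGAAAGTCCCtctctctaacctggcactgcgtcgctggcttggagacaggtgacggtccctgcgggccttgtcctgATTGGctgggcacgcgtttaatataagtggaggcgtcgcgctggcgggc
TAP1: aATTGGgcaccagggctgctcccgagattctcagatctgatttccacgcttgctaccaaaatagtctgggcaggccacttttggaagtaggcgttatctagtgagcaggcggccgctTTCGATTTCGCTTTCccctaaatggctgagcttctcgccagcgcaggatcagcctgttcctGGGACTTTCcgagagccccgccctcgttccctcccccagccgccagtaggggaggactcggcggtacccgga
TAP2: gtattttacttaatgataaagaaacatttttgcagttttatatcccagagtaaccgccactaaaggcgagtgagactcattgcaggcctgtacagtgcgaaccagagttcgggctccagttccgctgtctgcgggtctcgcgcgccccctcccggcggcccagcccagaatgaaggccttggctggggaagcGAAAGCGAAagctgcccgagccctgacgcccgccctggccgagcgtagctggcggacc
GAAANNGAA matched in 5 members (HLA-F, B2M, TAP1, TAP2 and TAPBP), against 8.11% of all 35116 windows. In B2M, TAP1 and TAPBP it matched in 2 overlapping copies, and in TAP2 once, 58 bases before the start. Other forms of this core were not searched. Letters such as tttcacttc, present in both the HLA-B and HLA-C runs, were therefore not counted. The lack of a GAAANNGAA match in HLA-B, HLA-C and PSMB9 does not show that they lack an interferon response element. GGGANTTTC matched in B2M and TAP1, against 1.28% of windows, and TGACGCG in HLA-B and HLA-C, against 2.38%. CCAAT matched in 6 members but also in 34.6% of windows. These matches are letters only, and neither binding nor use of any site was measured.

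The 3 class I chains with an entry differ at the kappaB letters. GGGATTCCC matched exactly in HLA-B, 176 bases before the start, and in 0.384% of all windows. The nearest stretch of HLA-C held 1 difference, C8T, and that of HLA-F held 2, G1A and G3A. Positions count from 1 at the 5′ end of the motif, the motif's base comes first, and the compared stretch is in capitals.
HLA-B: cgcagcgttgGGGATTCCCcactcccctga
HLA-C: cgccgcgttgGGGATTCTCcactcccctga
HLA-F: ctcagtattgAGAATTCCCcatctccccag

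Of the 9 genes 4, HLA-B, HLA-C, B2M and TAP1, were higher in the LKB1 line at an adjusted p under 0.05, and none was lower. Among all genes listed, 5.79% passed that threshold, 2.55% higher and 3.24% lower. Most genes of the table have few reads, and among the 5668 protein-coding genes with at least 1000 reads 12.1% passed, 7.32% higher and 4.82% lower. The median log2 fold of the 9 members was 0.42, and 8 of the 9 lay above 0. Over those 5668 genes the median was 0.02, with 52.7% above 0. Summed over the 9 genes there were 34405 reads with the empty plasmid and 50596 with LKB1, which is 2492 and 3525 reads per 1000000 (RPM).

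**Figure D1:**
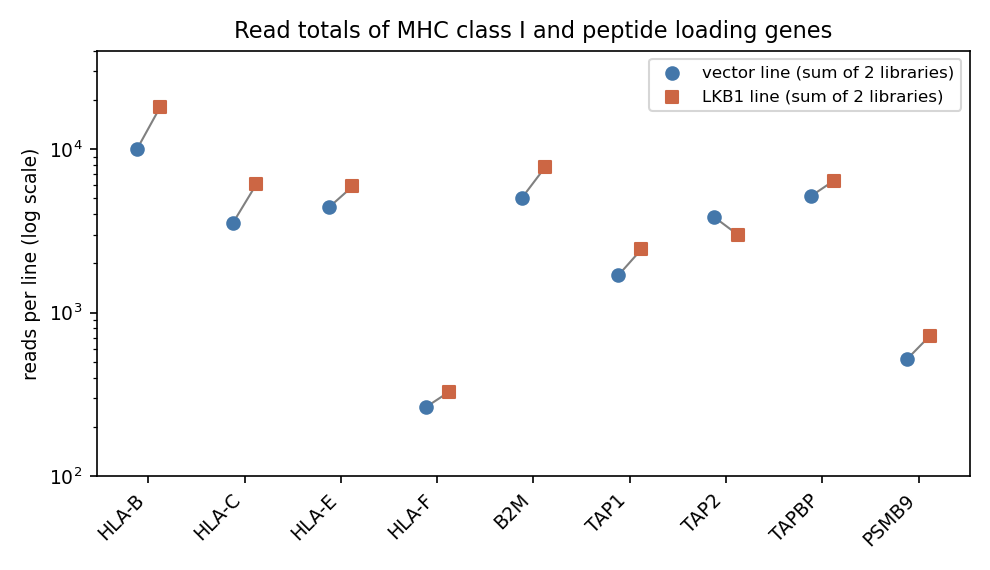
Reads of each of the 9 genes in the vector line (circles) and the LKB1 line (squares) on a log scale, each point a total over 2 libraries with no spread available. TAP2 is the only gene of the 9 with fewer reads in the LKB1 line (3828 and 3001), and HLA-B has the most in both lines (9961 and 17985).

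HLA-B (ENSG00000234745.4), a classical heavy chain that presents peptides to CD8+ T cells, lies on chr6:31321649-31324965 of hg19, minus strand. There were 9961 reads of it in the vector line against 17985 in the LKB1 line. The fold was 1.74 (log2 fold 0.80, with a standard error of 0.14 implied by the deposited p), and the adjusted p in the authors' deposited table was 1.12e-06. The 95% interval implied by that p ran from 1.43-fold to 2.10-fold. Its log2 fold stood at the 97.99th percentile of the protein-coding genes with at least 1000 reads.

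HLA-C (ENSG00000204525.8; chr6:31236526-31239907, minus strand), the classical chain that is also the main class I ligand of killer-cell immunoglobulin-like receptors, rose beside it. It went from 3549 to 6077 reads, 1.65-fold (log2 fold 0.72, implied standard error 0.14), with an adjusted p of 1.17e-05 in the authors' deposited table. The ratio of HLA-B to HLA-C reads was 2.81 with the empty plasmid and 2.96 with LKB1. The class I chains are near-identical in long stretches and differ between people and lines, so the assignment of reads among them is uncertain.

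HLA-E (ENSG00000204592.5; chr6:30457244-30461982, plus strand), which presents leader peptides of other class I chains to the NKG2A receptor of natural killer cells, had 4425 and 5910 reads. Its log2 fold of 0.36 (1.28-fold) did not pass, with an adjusted p of 0.122 in the authors' deposited table. HLA-F (ENSG00000204642.8; chr6:29690552-29706305, plus strand), a nonclassical chain, was the member with the fewest reads, 263 and 326. Its log2 fold of 0.25 had an implied 95% interval from -0.16 to 0.66 and an adjusted p of 0.939 in the authors' deposited table. HLA-F shares 11928 bases with the antisense HLA-F-AS1, which had 30 and 53 reads, and whether strand was used in counting is not given in the sources used here. The 4 chains together had 1318 RPM in the vector line against 2111 RPM in the LKB1 line.

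B2M (ENSG00000166710.12; chr15:45003675-45011075, plus strand) encodes the light chain that class I heavy chains generally need to fold and reach the surface. B2M is the only member outside chromosome 6. Its reads went from 5029 to 7736, a log2 fold of 0.57 (1.48-fold, implied standard error 0.14). The adjusted p in the authors' deposited table was 0.00267. The ratio of B2M to HLA-B reads was 0.505 with the empty plasmid and 0.430 with LKB1.

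The transporter genes had folds on opposite sides of 1. TAP1 (ENSG00000168394.9; chr6:32812986-32821755, minus strand) rose from 1685 to 2432 reads, 1.39-fold (log2 fold 0.47), with an adjusted p of 0.0245 in the authors' deposited table. TAP2 (ENSG00000204267.9; chr6:32789610-32806557, minus strand), whose protein is the other chain of the same pump, had 3828 reads in the vector line against 3001 in the LKB1 line. Its fold was 0.754 (log2 fold -0.41, implied 95% interval from -0.69 to -0.12), and its adjusted p of 0.0804 in the authors' deposited table did not pass. With p adjusted only over the 14385 genes with at least 40 reads, of which 15.4% passed, TAP2 passed as lower with an adjusted p of 0.0370. Over the protein-coding genes with at least 200 reads, of which 15% passed, its adjusted p was 0.0382. At an adjusted p under 0.1, where 6.96% of all genes passed, the members called were 5, TAP2 included, and under 0.01, where 3.95% passed, they were 3, without TAP1.

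The ratio of TAP1 to TAP2 reads was 0.440 with the empty plasmid and 0.810 with LKB1. The ratio was thus 1.84 times as high in the LKB1 line, a value that does not depend on the length of either gene, and this difference was not tested. The TAP2 gene lies wholly within another gene model of the table on the same strand (XXbac-BPG246D15.9), which had 3849 and 3017 reads, so nearly the same reads stand in both rows.

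TAPBP (ENSG00000231925.7; chr6:33267471-33282164, minus strand), the tapasin gene, had 5147 and 6407 reads. Its log2 fold was 0.26 (19.7% above the vector line) with an adjusted p of 0.494 in the authors' deposited table. TAP1, TAP2 and TAPBP together made up 772 RPM with the empty plasmid and 825 RPM with LKB1.

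PSMB9 (ENSG00000240065.2; chr6:32811913-32847364, plus strand) encodes the immunoproteasome subunit that takes the place of PSMB6. It had 518 and 722 reads, a log2 fold of 0.42 (1.34-fold, implied standard error 0.18), and an adjusted p of 0.183 in the authors' deposited table. PSMB9 and TAP1 are transcribed away from each other from starts 488 bases apart, counted from the listed TAP1 start that is nearer to PSMB9. There were 3.25 TAP1 reads for each PSMB9 read with the empty plasmid and 3.37 with LKB1. The PSMB9 gene model of the table spans all of TAP1 on the other strand and 568 bases of PSMB8.

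**Figure D2:**
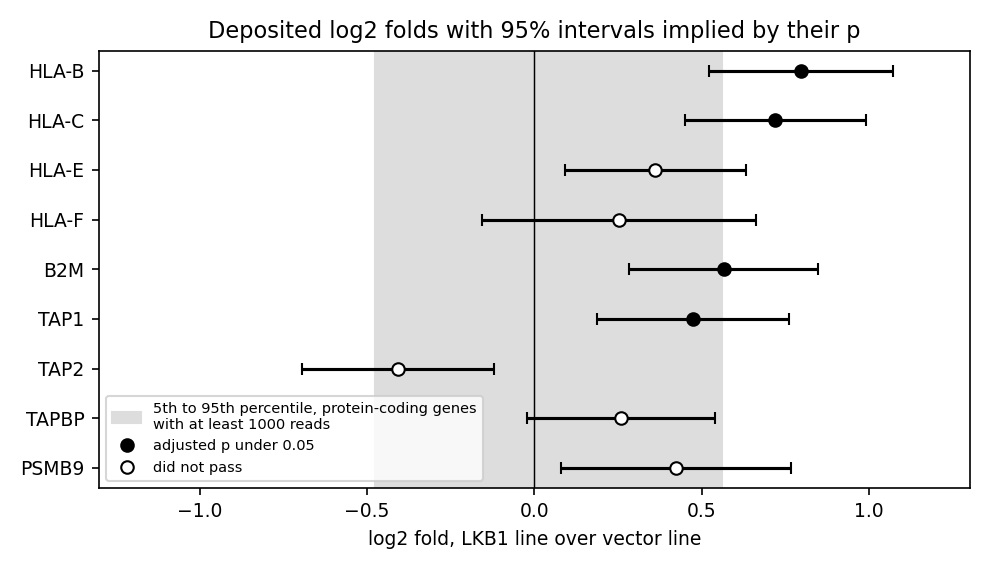
Deposited log2 folds (LKB1 over vector) with the 95% intervals implied by the deposited p, filled where the adjusted p is under 0.05, over a grey band from the 5th to the 95th percentile of protein-coding genes with at least 1000 reads (-0.48 to 0.56). HLA-B, HLA-C and B2M lie beyond the upper edge of the band, TAP1 (0.47) lies inside it, and TAP2 (-0.41) is alone below 0.

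The sizes that could pass were limited. Among the protein-coding genes with at least 1000 reads the smallest log2 fold that passed was 0.41 in size. The log2 folds of TAP2 (-0.407 against 0.410 at 3 decimals), HLA-E (0.36) and TAPBP (0.26) were smaller in size than that. PSMB9 (0.42) was larger in size than 0.41 but did not pass. Size alone did not decide, since in that gene set sizes of up to 1.85 did not pass. The p of the members corresponds, in a negative binomial test, to a coefficient of variation between libraries of 0.093 to 0.117. This coefficient is worked back from p and is not a spread measured between the libraries for each gene. With an assumed coefficient of 0.1, a negative binomial test on the read totals called 4 members, the same 4 genes, where 6.93% of all genes passed. At 0.2 it called 0 members, where 2.51% of all genes passed; 2 members had an unadjusted p under 0.05, and the adjusted p ran from 0.170 for HLA-B to 0.988 for TAP1 among the 4.

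Levels were set side by side per kilobase of exon and per 1000000 reads (RPKM). HLA-B stood highest in both lines (455 in vector cells, 790 in LKB1 cells), at the 99.6th and 99.8th percentile of the genes compared. HLA-C followed (165 and 272), then B2M (153 and 227), HLA-E (123 and 158) and TAPBP (88.9 and 106). HLA-F was lowest, at 9.60 and 11.4. With the union of exons as length, TAP2 (44.9), TAP1 (41.2) and PSMB9 (40.7) stood close together in the vector line, and the 95% counting interval of PSMB9 (37.3 to 44.4) overlapped those of TAP1 (39.3 to 43.3) and TAP2 (43.5 to 46.3). On the same length TAP1 (57.3) and PSMB9 (54.6) stood above TAP2 (33.9) in the LKB1 line. These intervals cover counting error only, and the spread between libraries is not known. The order below HLA-B depends on the length used. With the principal transcript TAP2 stood above PSMB9 and TAP1 in both lines, at 111.0 against 48.0 and 41.2 in the vector line and 83.7 against 64.3 and 57.3 in the LKB1 line. On that length B2M came second in both lines (214 and 316) and HLA-C (167) stood below TAPBP (197) in the vector line.

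The other genes of the pathway were read by list, with the same threshold. Of 16 other class I and class I-like chains, 12 had at least 40 reads; 2 were higher and 1 lower, and the median log2 fold of the 12 was 0.03. HLA-G, a nonclassical chain known from the placenta, went from 284 to 477 reads (log2 fold 0.69) with an adjusted p of 0.0147 in the authors' deposited table. PROCR, the class I-like receptor of protein C, fell from 581 to 347 reads (log2 fold -0.80). HFE, the class I-like regulator of iron uptake, had 199 and 310 reads (log2 fold 0.58) and did not pass. Of the class I pseudogenes, 4 had at least 40 reads and 0 passed, while 2 of those in the table had a deposited p under 0.05; their median log2 fold was 0.46. HLA-H (0.64), HLA-J (0.76) and HLA-K (0.22) had positive log2 folds. The reads of these pseudogenes, and those of HLA-G, cannot be told apart with certainty from those of the more abundant class I chains.

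None of 18 chaperones and trimming peptidases of the loading route passed, with a median log2 fold of -0.02 and 2 genes at a deposited p under 0.05. CANX, the chaperone of newly made heavy chains, had 12040 and 16433 reads (log2 fold 0.39, and in the authors' deposited table an adjusted p of 0.144). NPEPPS, a cytosolic aminopeptidase, had a log2 fold of 0.34, UGGT1, which marks misfolded glycoproteins, 0.23, and ERAP2, a peptide-trimming aminopeptidase of the endoplasmic reticulum, -0.31.

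The other inducible parts of the proteasome did not pass either (0 of 5, and 0 at a deposited p under 0.05). PSMB8, the immunoproteasome subunit that takes the place of PSMB5, had 1300 and 1635 reads (log2 fold 0.27), and PSMB10, which takes the place of PSMB7, had 581 and 506 (-0.26). The assembly factor POMP had a log2 fold of 0.21, and the activator subunits PSME1 and PSME2 had 0.18 and -0.17. The ratio of PSMB9 to PSMB6 reads was 0.457 with the empty plasmid and 0.730 with LKB1, that of PSMB8 to PSMB5 0.821 and 1.22, and that of PSMB10 to PSMB7 0.308 and 0.241; these ratios were not tested. Of 14 constitutive core subunits 0 passed (1 at a deposited p under 0.05), with a median log2 fold of -0.02 and values of 0.30 for PSMB1, -0.30 for PSMB5, -0.22 for PSMB2 and -0.25 for PSMB6. Of 20 subunits of the regulatory cap 0 passed (1 at a deposited p under 0.05), with a median of -0.03 and values of -0.39 for PSMC5, 0.27 for PSMC2, -0.20 for PSMD2 and 0.20 for PSMC3.

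Among 20 regulators of class I transcription, 1 passed, and it was lower. IRF9, the DNA-binding part of the complex that answers type I interferon, fell from 199 to 125 reads (log2 fold -0.73, and in the authors' deposited table an adjusted p of 0.0447). NLRC5, the class I transactivator, had 631 and 738 reads (log2 fold 0.17), and CIITA, its class II counterpart, had 634 and 670 (0.02). STAT2 stood at 0.17, and the interferon regulatory factors IRF1 and IRF2 at -0.19 and 0.25. The NF-kappaB subunits RELA and NFKB1 had log2 folds of 0.15 and -0.22. The X-box proteins RFX5, RFXANK and RFXAP stood at -0.19, -0.18 and -0.37, and the X2-box proteins CREB1 and ATF1 at 0.04 and -0.34. The CCAAT-binding proteins NFYA, NFYB and NFYC stood at 0.06, 0.04 and -0.19. The Polycomb proteins EZH2, EED and SUZ12, which can silence class I genes in tumours, stood at -0.01, -0.27 and 0.19.

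Interferon response genes held no call in the higher direction at an adjusted p under 0.05; at 0.1 there was 1, IFI27 (375 and 551 reads, log2 fold 0.50). Of 24 interferon receptors and signalling genes 0 were higher and 3 lower, namely IRF7 (log2 fold -0.93), IRF9 and SOCS3 (-0.59). Among all protein-coding genes with at least 40 reads 13.2% passed, 5.9% higher and 7.3% lower. DDX58 had -0.47 and did not pass. Of the 24 genes 9 had a deposited p under 0.05, some higher and some lower. Their median log2 fold over all 24 was -0.11, and 7 of the 24 lay above 0. Of 49 interferon-stimulated genes in the table, 45 had at least 40 reads, 0 were higher and 3 were lower. OAS1, an antiviral sensor of double-stranded RNA, fell from 68 to 10 reads, IFI44L from 45 to 6 and TRIM22, an antiviral ligase, from 69 to 25. ICAM1, an adhesion molecule that also answers interferon and NF-kappaB, had a log2 fold of -0.41 and did not pass. The median of the 45 was 0.03, and 24 of them lay above 0. Of the 49 genes 10 had a deposited p under 0.05, some higher and some lower.

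Of 14 class II presentation genes 0 were higher and 1 was lower, with a median log2 fold of -0.03 over the 12 with at least 40 reads. HLA-DQB1, a class II beta chain, fell from 104 to 40 reads. HLA-DRA had 1920 and 1470 reads (log2 fold -0.44), HLA-DRB5 had -0.53 and HLA-DRB1 -0.34, none of which passed. CD74, the invariant chain, had 6273 and 7640 reads, while CD80 had 0 reads and CD86 1 in each line. These last 2 are costimulatory ligands of professional antigen-presenting cells.

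Ligands that T cells and natural killer cells read beside class I were lower or did not pass. CD274, which encodes PD-L1, fell from 467 to 323 reads (log2 fold -0.59, and in the authors' deposited table an adjusted p of 0.0392) and was the only 1 of 16 such genes in the table to pass. PVR had a log2 fold of -0.29, and the stress ligands MICA and MICB had -0.24 and -0.23. Among 12 genes of class I surface turnover 0 were higher and 1 was lower. AP1M1, an adaptor subunit of the trans-Golgi network, fell from 3610 to 2618 reads. EHD1, a recycling factor, had 4973 and 6919 reads (log2 fold 0.42, and in the authors' deposited table an adjusted p of 0.0524), TMEM129, a ubiquitin ligase, 0.28 and RAB11A, a recycling GTPase, 0.18.

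**Figure D3:**
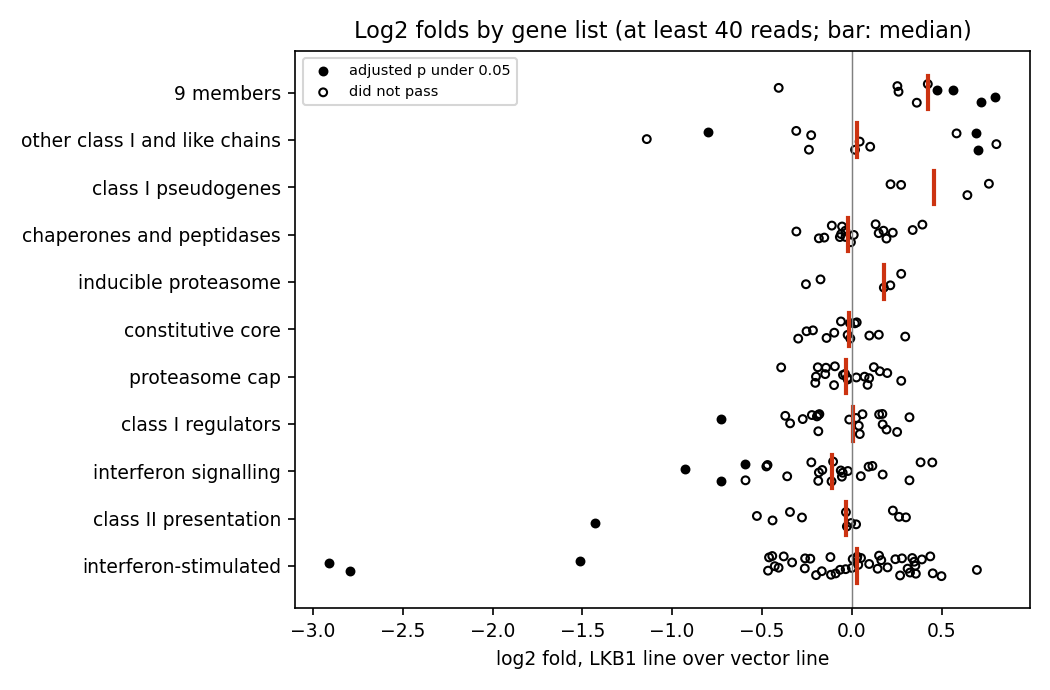
Log2 folds (LKB1 over vector) of genes with at least 40 reads, 1 row for each of 11 gene lists (the ligands of T and natural killer cells and the surface turnover genes are not drawn), filled where the adjusted p is under 0.05, with a bar at each median. The medians of the 9 members (0.42) and of the 4 class I pseudogenes (0.46) lie above 0.4, and those of the other 9 lists drawn lie between -0.11 and 0.18.

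All members but B2M lie on the short arm of chromosome 6 between HLA-F and TAPBP, so the genes among them were compared. Of 100 other protein-coding genes with at least 40 reads in that span, 6 were higher and 2 lower, against 13.2% of all 12484 such genes in the table, 5.9% higher and 7.3% lower. Their median log2 fold was -0.09, and 34 of the 100 lay above 0. Between HLA-F and HLA-B, 3 of 29 were higher and 0 lower, HLA-G and DDR1, a collagen receptor kinase (840 and 1697 reads, log2 fold 0.96), among them. Between HLA-B and TAP2, 3 of 52 were higher and 2 lower: LTB, a lymphotoxin subunit (25 and 74 reads), CFB, complement factor B (752 and 1247 reads, 0.67), and a read-through model with the same reads as CFB were higher, and GPSM3 (-1.75) and HLA-DQB1 (-1.43) were lower. From TAP2 to TAPBP, 0 of the 18 neighbours of TAP1, PSMB9 and TAPBP passed, and their median was -0.03.

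**Figure D4:**
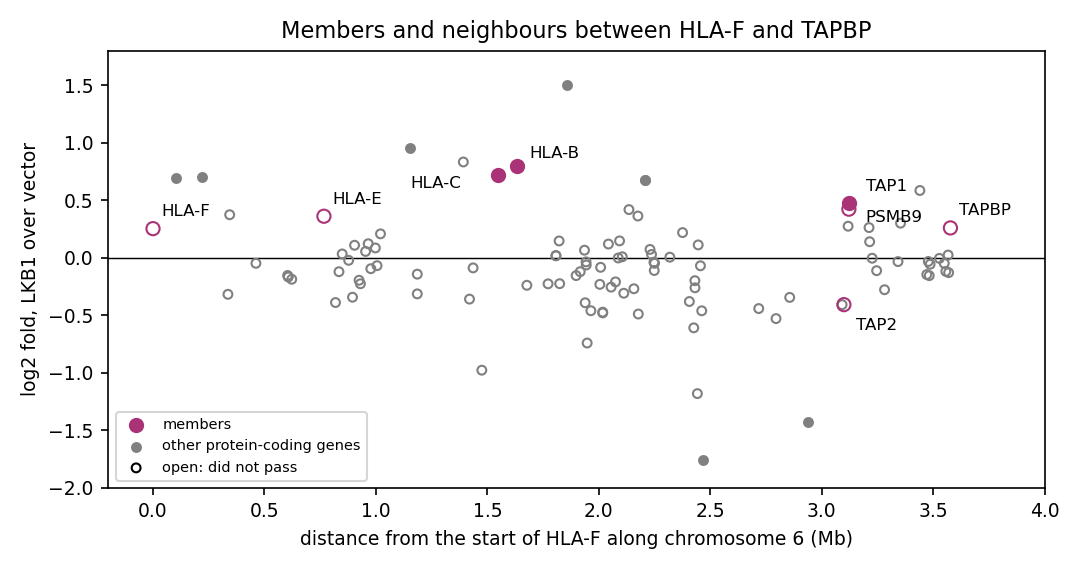
Log2 fold (LKB1 over vector) against distance in megabases from the start of HLA-F for the 8 members on chromosome 6 (large points) and 100 other protein-coding genes with at least 40 reads (small points), filled where the adjusted p is under 0.05. HLA-B and HLA-C stand near 0.8 and 0.7 among neighbours whose median is -0.09, and TAP1 and TAP2, close together on the axis, stand at 0.47 and -0.41.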

How the data were processed

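RNA had been measured in 4 libraries, 2 per line. The submitters' processing notes name the build hg19 and, without roles, edgeR 2.6.0, CASAVA 1.8.2 and TopHat2 2.0.6. The counting, its use of strand (the library method was stranded), the annotation release and filters: not given in the sources used here. For each gene the authors deposited a fold (a ratio), its log2 fold, a p-value and an FDR, per the file headers; the last was Benjamini-Hochberg over all 34675 genes. The deposited adjusted p is the test used here.

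Read totals per line were recovered from the deposited folds, which hold prior counts of 0.255 reads in the LKB1 line and 0.245 in the vector line, for 28240 of the 28242 genes with reads. The smallest pair of totals that gave the fold was taken, which can be too low for the most abundant genes, so the line totals are approximate. The number of smaller pairs that rounding alone would let through was at most 0.0688 for a member (HLA-B) and over 0.1 for 86 genes, which held 17% of all reads. The recovery and the negative binomial test were tested on simulated data. RPM and RPKM use the depth ratio in the deposited folds (1.04), and lengths are unions of GENCODE 29 exons. Implied standard errors are the log2 fold divided by the normal deviate of its deposited p. Genes passed at an adjusted p under 0.05. Counting intervals are exact Poisson intervals at 95%.

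All 9 members were named, every class I regulator and inducible proteasome part, and from every other list up to 4 genes with the smallest p; 2 genes this rule names are not reported here. IFI27, EGFL7, EGFR, KRT8, ESR1, PGR, CD74, CD80, CD86 and the neighbours on chromosome 6 were named after their values were seen, as were the markers at 0. The same holds for ERBB2, CDH1, EPCAM, CD68 and CSF1R. The motif letters, the members and the lists were chosen with earlier results of these data known. Alternatives were other thresholds, adjustment over other gene sets, assumed variation between libraries, centring, no prior count, scaling by total reads and transcript length, the last 2, a centring on genes with at least 1000 reads and the adjustment over protein-coding genes with at least 200 reads being chosen after seeing the data. Python 3.11.15, pandas 2.3.3 and scipy 1.17.1 were used.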

Additional observations from a re-analysis of the deposited data

How the results depend on the processing

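No paired analysis was possible because the table holds no value per library and the labels mark the libraries by letters that the lines do not share. For the same reason leaving out each library in turn was not run. The 4 calls among the members became 3 at an adjusted p under 0.01 (without TAP1) and 5 at 0.1 (with TAP2 lower), and were 5 when p was adjusted over genes with at least 40 reads or, chosen after seeing the data, over protein-coding genes with at least 200 reads. An assumed variation of 0.2 between libraries gave 0 members. At a threshold of 0.1 the lists held 1 called pseudogene (higher), 2 class II genes (both lower), 6 interferon-stimulated genes (1 higher and 5 lower), 2 turnover genes (1 higher, EHD1, and 1 lower) and 13 neighbours on chromosome 6. At 0.01 they held 0 regulators, 1 interferon signalling gene and 0 checkpoint or natural killer ligands. No log2 fold of the 9 members changed sign under the centrings and scaling tried. Scaling by total reads shifted every log2 fold by -0.04, so that log2 folds and list medians of other genes that lie nearer to 0 than this can change sign. The fewest reads stood behind HLA-F and PSMB9, whose implied standard errors (0.21 and 0.18) were the widest of the 9.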
